A study of Danio rerio with 8 samples.

Results

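The genes that encode potassium channels, their auxiliary subunits and the HCN pacemaker channels were examined in retinas of zebrafish *bbs2* mutants. Members were all rows of the deposited gene table whose lower-case symbol begins with *kcn* followed by a letter, or with *hcn* followed by a digit. This rule took 118 of the 32520 genes in the table and did not use any measured value. The 118 genes fall into 20 subfamilies by the letters after *kcn*. All 118 identifiers were found in the reference name table, which names 117 of them as channel genes. The exception is 1 of the 2 identifiers with the symbol *kcnj11l*, which the reference names *cd59b* and which had too few counts to be tested.

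The compared groups were 4 samples of *bbs2* -/- homozygous mutants and 4 samples of wild-type (*bbs2* +/+) siblings from crosses of heterozygous parents. Fish of both sexes were 6 months old and were dark-adapted for 16 to 20 hours before dissection, and each sample pooled a pair of retinas from which most of the retinal pigment epithelium had been left behind. *bbs2* encodes a subunit of the BBSome, a protein complex that carries membrane proteins in cilia, and its loss leads to a slow degeneration of photoreceptors, whose light-sensing outer segments are modified cilia. The labels call the 4 samples of a genotype biological replicates. Total RNA was depleted of ribosomal RNA and sequenced, and the question addressed here is how transcripts of each channel subfamily differed between mutant and wild-type retinas.

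Potassium channels set the resting potential of a cell and end its depolarizations. Voltage-gated subunits (Kv) open on depolarization, inward rectifiers (Kir) hold the resting potential, K2P subunits, with paired pore domains, carry leak currents, and the BK and SK channels open when calcium rises. HCN channels open on hyperpolarization. In vertebrate photoreceptor inner segments, Kv2 channels that contain the modifier subunit Kv8.2 balance the current of the light-sensitive channels in darkness, and an HCN current shortens the response to light. Müller glia, amacrine cells, ganglion cells and the pigment epithelium each use further subunits.

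The libraries held 6279179 to 11496801 counts, and the median absolute deviation of a library from its genotype's mean was 0.11 to 0.14 on the log2 scale. Values are given as CPM, a library's counts scaled to a common total after TMM normalization, and fold changes as log2 of mutant over wild-type with their standard error. A gene is called higher or lower where the adjusted p of edgeR's quasi-likelihood test is under 0.05 (Benjamini-Hochberg over all 17144 tested genes). *bbs2* itself was at 27.3 to 28.8 CPM in mutants and 39.8 to 45.5 CPM in wild-type retinas (log2 fold change -0.59 ± 0.09, adjusted p = 8.82e-05). Among markers of retinal cell types, 15 of 17 cone genes were lower and 1, *opn1lw1*, was higher (log2 fold change 0.99, adjusted p = 0.00682). *opn1lw1* averaged 2115 CPM in mutants and 1064 CPM in wild-type retinas. The summed level of the 17 cone genes was 8145 to 9633 CPM in mutants and 19610 to 20500 CPM in wild-type retinas. All 10 pigment epithelium genes were higher, and their sum was 978 to 1385 CPM in mutants and 49.6 to 154.5 CPM in wild-type retinas. Of the microglia and macrophage genes, 10 of 11 tested were higher (528 to 599 CPM in mutants and 341 to 381 CPM in wild-type retinas). In such bulk samples, fewer cells of a type and less RNA per cell cannot be told apart.

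More channel genes were lower than higher in mutant retinas, while most were not called. Among the 5 most abundant genes, the largest decreases were in *kcnv2b*, *hcn3* and *kcnb2*. Of the 118 members, 89 had enough counts to be tested. 26 were lower and 4 were higher in mutants, while 59 were not called. The lower calls made up 29.2% of the tested members, beside 13% of all tested genes, and the higher calls 4.49%, beside 15.2% of all tested genes. Calls in either direction made up 33.7% of the tested members and 28.1% of all tested genes. At an unadjusted p under 0.05, 43 of the 89 tested members passed, beside 6586 of all 17144 tested genes. The log2 fold change was negative for 73 members and positive for 16, with a median of -0.29 over the tested members and -0.01 over all tested genes. With library totals in place of TMM, which moved the median of all genes by 0.10, 13 members were lower and 4 higher, and the median of the members was -0.19. Of all calls with library totals 71.3% were higher, against 54% with TMM. The shares of all tested genes given above are thus not the background of these counts, and the shares with library totals are not given here.

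Most of the decreases were small. The log2 fold changes of the 26 lower members lay between -1.43 and -0.27, and those of 17 of them were between -0.5 and 0. Beyond 0.5 on the log2 scale, 9 members were lower and 3 higher, and the shares over all tested genes were 5.55% and 12%. In 26 members every mutant library was below every wild-type library, and in 3 members every mutant library was above, beside 13.9% and 15.4% of all tested genes. Of the 26 members called lower, 21 were among the 26 without overlap. The lower calls were spread over 13 subfamilies and the higher calls over 4. Counts within a subfamily stand beside the same shares of all tested genes, 13% lower and 15.2% higher. With library totals the lower calls lay in 8 subfamilies, and none was left in *kcna*, *kcnab*, *kcnc*, *kcnn* or *kcnq*. Of the 18 subfamilies with a tested member, 16 had a negative median log2 fold change.

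**Figure D1:**
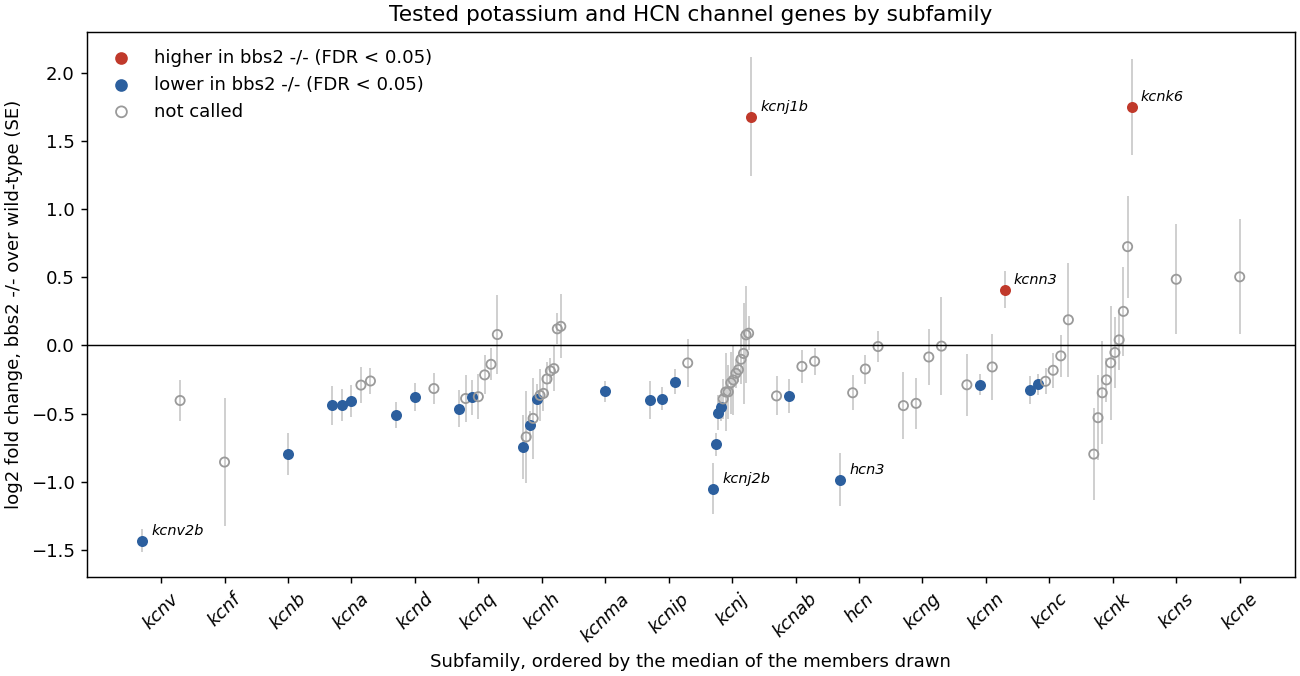
Log2 fold change (mutant over wild-type, vertical axis) with its standard error for the tested channel genes described here, by subfamily in the order of their medians; red points were called higher, blue points lower and open points not called. *kcnv2b* is the lowest at -1.43, *kcnk6* is the highest at 1.75, and most points lie below 0.

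Levels were compared between genes on TPM, which correct for transcript length and carry no TMM scaling. The 5 most abundant members in wild-type retinas were *kcnb2*, *hcn3*, *kcnv2a*, *kcnv2b* and *kcnip3a*. Together they held 37.2% ± 3.18 of the summed TPM of all 118 members in mutants and 45.2% ± 3.49 in wild-type retinas (SD, n = 4 each). Their summed TPM was 694, 762, 699 and 726 in the 4 mutant libraries, against 1022, 1244, 1280 and 1302 in the 4 wild-type libraries. These 2 sets of libraries did not overlap, and the ratio of the means was 0.594. The other 113 members together had 1115 to 1447 TPM in mutants and 1367 to 1555 TPM in wild-type retinas, with mutant 1 inside the wild-type range and a ratio of means of 0.835. Of the difference of 734 TPM between the summed means, 67.0% fell on the 5 genes. The cut at 5 genes was a choice, and this share and both ratios depend on it. The other 113 members include those not reported here by name.

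The order of levels also differed between genotypes. *kcnb2* was first in both, at 193 ± 20.2 TPM in mutants and 331 ± 54.2 TPM in wild-type retinas (SD, n = 4 each). *hcn3*, the second in wild-type retinas, had 124.5 ± 19.0 TPM in mutants and 245 ± 43.1 TPM in wild-type retinas. *kcnv2b*, the fourth in wild-type retinas, was the sixth in mutants, with 82.0 ± 8.74 TPM against 218 ± 28.3 TPM in wild-type retinas. Neighbours in this order, such as *kcnv2a* (174 ± 20.3 TPM in mutants and 229 ± 39.3 TPM in wild-type retinas) and *hcn3* in wild-type retinas, differed by less than their spread over libraries. The median wild-type level was 25 TPM for the members called lower, 8.97 TPM for those not called and 2.31 TPM for those called higher. The last median rests on 4 members. Members with more counts can be called at smaller changes. The wild-type level is also part of the fold change, and *kcnj1b* and *kcnk6* had enough counts to be tested through the mutant libraries. These medians therefore do not show that level sets the direction.

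**Figure D2:**
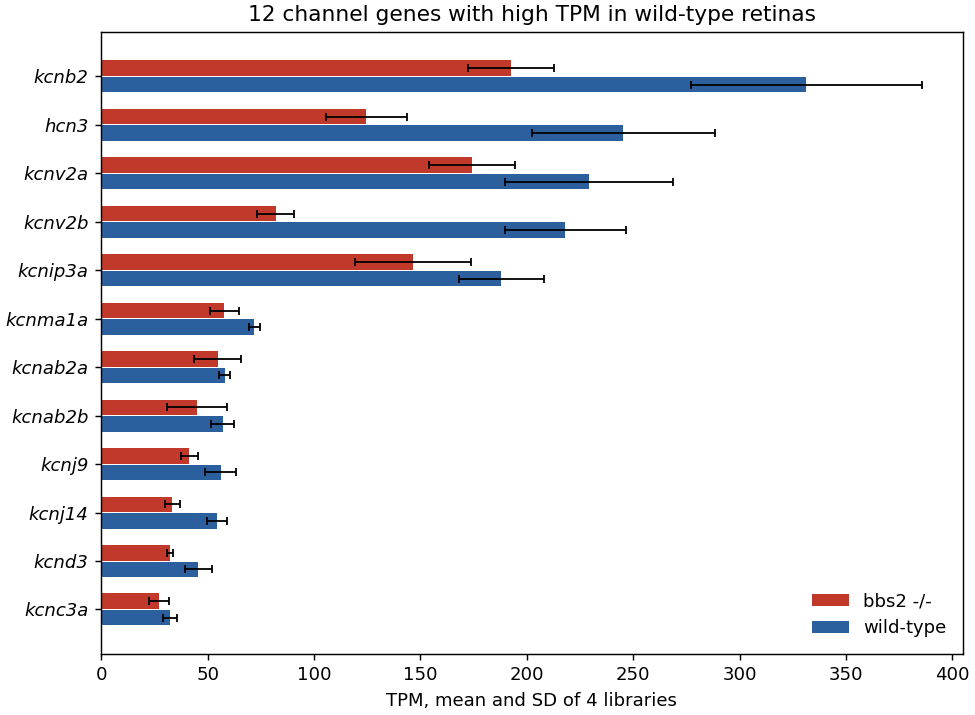
Mean TPM of 12 abundant channel genes as bars, mutants (red) above wild-type siblings (blue), with the SD of 4 libraries. *kcnb2* leads in both genotypes, and *kcnv2b* averages 82.0 TPM in mutants and 218 TPM in wild-type retinas.

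*kcnb2*, *kcnv2b* and *hcn3* had the larger decreases among the abundant genes. *kcnb2* (ENSDARG00000038862) encodes Kv2.2, a delayed rectifier that is a pore-forming partner of Kv8.2. *kcnb2* was at 373, 553, 546 and 504 CPM in mutants, against 750.4, 733, 871 and 1070 CPM in wild-type retinas. All 4 mutant libraries were below all wild-type libraries, with mutant 1 the lowest (log2 fold change -0.79 ± 0.15, adjusted p = 0.00409).

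The 2 copies of the Kv8.2 gene, a silent subunit whose loss in humans causes a cone dystrophy with altered rod responses, did not change to the same degree. *kcnv2b* (ENSDARG00000062906) was at 81.8, 76.5, 87.1 and 90.2 CPM in mutants, against 199, 241, 248 and 217 CPM in wild-type retinas. It had the largest decrease of all tested members, to 0.37 times the wild-type level, with no overlap (log2 fold change -1.43 ± 0.08, adjusted p = 1.07e-08). *kcnv2a* (ENSDARG00000076644) was at 129, 196, 183 and 177 CPM in mutants, against 173, 252, 232 and 249 CPM in wild-type retinas. Wild-type library 1 lay below 3 of the mutant libraries, and *kcnv2a* was not called (log2 fold change -0.40 ± 0.15, adjusted p = 0.0739). Without that library *kcnv2a* was called lower (-0.52, adjusted p = 0.0078), and it was also called by DESeq2 (adjusted p = 0.0246).

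The ratio of *kcnv2a* to *kcnv2b* in TPM was 1.66, 2.69, 2.21 and 2.06 in mutants, against 0.914, 1.103, 0.982 and 1.205 in wild-type retinas. The mutant retinas thus held more *kcnv2a* than *kcnv2b* in every library, while wild-type libraries had the 2 copies near equal. The change of the log2 ratio was 1.02 ± 0.14 (limma on the ratios of 2006 gene pairs whose symbols differ in a final a or b, adjusted p = 0.000158), and it passed in all 11 alternative settings of this test. Over both Kv8.2 copies together, the TPM ratio of Kv8.2 to *kcnb2* transcripts was 1.27 to 1.445 in mutants and 1.11 to 1.71 in wild-type retinas, which overlap. A further row, *KCNB2* in capitals, lies outside the rule and is not part of this ratio.

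Of the HCN genes, *hcn3* was lower. *hcn3* (ENSDARG00000027192) was at 126, 202, 201 and 149 CPM in mutants, against 263, 328.5, 334.5 and 417 CPM in wild-type retinas. There was no overlap, and the mutant level was 0.506 times the wild-type level (log2 fold change -0.98 ± 0.19, adjusted p = 0.00623).

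*hcn2b* and the *hcn4* genes were not called. *hcn2b* was at 19.2, 19.9, 16.4 and 13.65 CPM in mutants, against 21.55, 22.9, 21.0 and 23.0 CPM in wild-type retinas. All mutant libraries were below the wild-type libraries, and the test missed the threshold (log2 fold change -0.35 ± 0.13, adjusted p = 0.0556), which it passed without mutant library 2 (adjusted p = 0.038). *hcn4* was at 36.3, 40.05, 40.1 and 37.9 CPM in mutants, against 38.3, 37.5, 47.0 and 51.05 CPM in wild-type retinas, and the groups overlapped (log2 fold change -0.17 ± 0.11, adjusted p = 0.252). *hcn4l* had a log2 fold change of -0.01 (adjusted p = 0.968), and *hcn5*, with 4 counts in mutants and 6 in wild-type retinas over all libraries, was not tested.

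Marker sums of photoreceptors are given beside these channels. The cone sum of the mutants was 0.441 times that of wild-type retinas. Of 14 rod genes 3 were higher and 1 lower, beside 15.2% and 13% of all tested genes. The rod sum was 24050, 33170, 33820 and 29880 CPM in mutants, against 27700, 21410, 22540 and 24400 CPM in wild-type retinas. The largest part of this sum was *rho*, at 15940, 21320, 21390 and 19660 CPM in mutants, against 16200, 11100, 11870 and 12670 CPM in wild-type retinas. *rho* was called higher (log2 fold change 0.60), and the median over the 14 rod genes was 0.13. Mutant 1, the lowest mutant in *kcnb2*, *hcn3* and *kcnv2a*, was also the lowest mutant in the rod sum. Wild-type library 1, the lowest wild-type library in *kcnv2a*, *kcnv2b* and *hcn3*, was the highest wild-type library in that sum. Both held the same places in *rho* alone. Among mutants *kcnv2b* was lowest in mutant 2 (76.5 CPM), and among wild-type libraries *kcnb2* was lowest in library 2 (733 CPM). The wild-type order differed between other rod genes. Library 1 was the highest in *cngb1a* (669 CPM) and the lowest in *pde6b* (1455 CPM), and library 4 was the highest in *gnat1* (2994 CPM). The part of cone and rod content in the channel values was not tested.

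**Figure D3:**
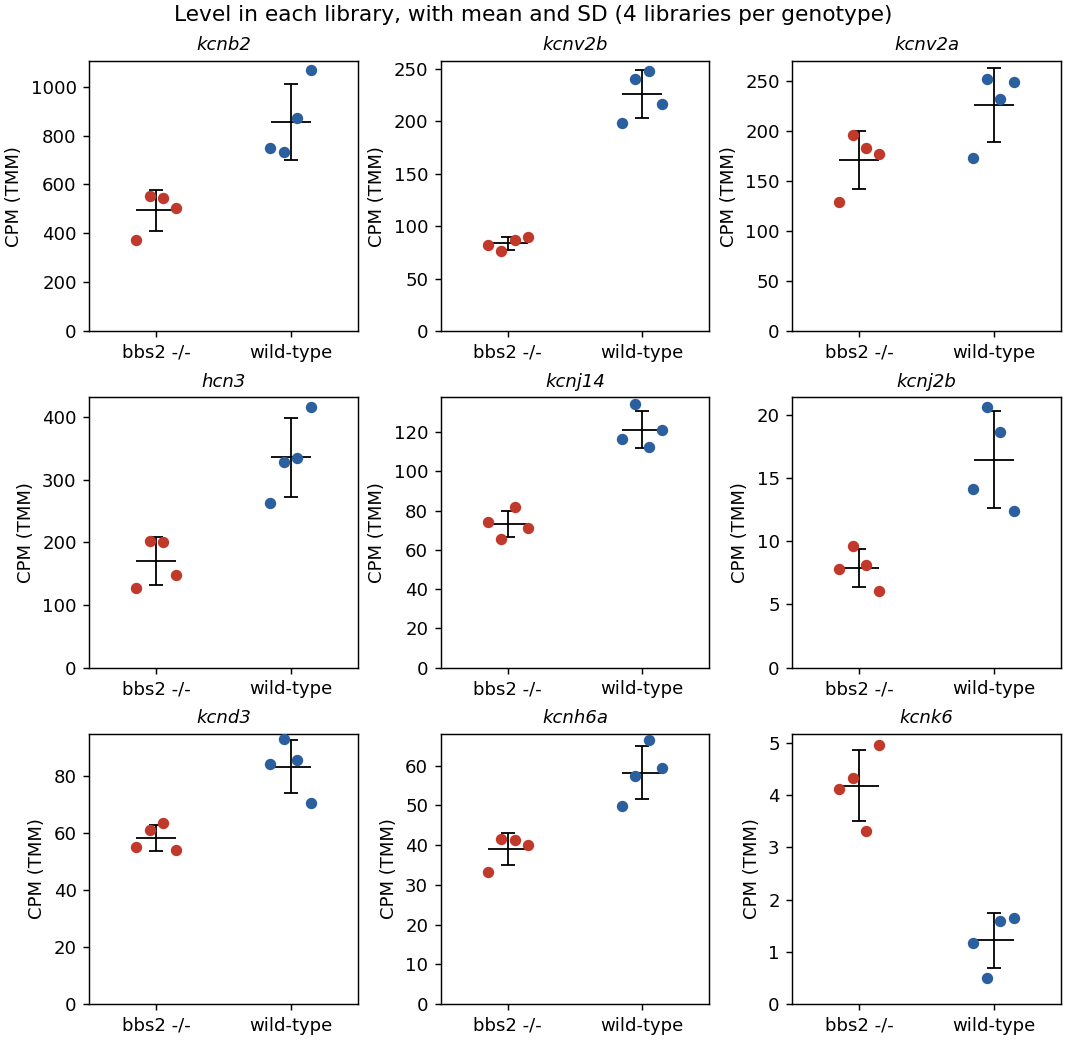
CPM in each of the 4 mutant and 4 wild-type libraries for 9 channel genes, each panel on its own axis from 0, with the mean and SD in black. For *kcnb2*, *kcnv2b*, *hcn3*, *kcnj14*, *kcnj2b*, *kcnd3* and *kcnh6a* every mutant point lies below every wild-type point, for *kcnk6* every mutant point lies above, and the *kcnv2a* points overlap.

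Inward rectifiers were the largest subfamily, with 25 members of which 16 were tested, 4 were lower and 1 was higher. The smallest p was that of *kcnj14* (ENSDARG00000075914), which encodes Kir2.4, a neuronal rectifier. *kcnj14* was at 73.95, 65.65, 82.0 and 71.3 CPM in mutants, against 116.5, 134, 113 and 121 CPM in wild-type retinas. The libraries of the 2 genotypes were far apart (log2 fold change -0.73 ± 0.08, adjusted p = 1.01e-05). *kcnj2b* (ENSDARG00000104389), a gene for the classical strong rectifier Kir2.1, was at 7.82, 9.63, 8.09 and 6.02 CPM in mutants, against 14.1, 20.6, 18.7 and 12.4 CPM in wild-type retinas. It was at 0.482 times the wild-type level without overlap (log2 fold change -1.05 ± 0.19, adjusted p = 0.000525).

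The other Kir2.1 copy, *kcnj2a*, was scarcer and not called. *kcnj2a* was at 5.965, 2.79, 2.35 and 1.74 CPM in mutants, against 3.81, 4.25, 3.29 and 2.15 CPM in wild-type retinas. The groups overlapped and mutant 1 was the highest of all (log2 fold change -0.06 ± 0.37, adjusted p = 0.93), and the estimate was -0.54 without mutant 1 and turned positive in 6 of 16 alternative settings, among them library totals (0.05). The response of the copies differed by 0.86 ± 0.35 on the log2 scale, which did not pass the pair test (limma, adjusted p = 0.0891), although every mutant library had a higher *kcnj2a* to *kcnj2b* ratio than every wild-type library.

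Genes of Kir3 channels, which G protein βγ subunits open after activation of inhibitory receptors, were lower in part. *kcnj9*, for Kir3.3, was at 28.9, 28.8, 29.1 and 26.6 CPM in mutants, against 41.8, 43.7, 36.8 and 33.6 CPM in wild-type retinas. The mutant libraries were close together and all below wild-type (log2 fold change -0.46 ± 0.10, adjusted p = 0.00296). *kcnj5*, for Kir3.4, was at 26.4, 19.0, 26.5 and 20.1 CPM in mutants, against 32.7, 34.5, 34.6 and 28.05 CPM in wild-type retinas, again without overlap (log2 fold change -0.49 ± 0.13, adjusted p = 0.00831). *kcnj5* was the only lower call of the subfamily that fell outside the naming rule. The 2 Kir3.1 genes, *kcnj3a* and *kcnj3b*, had log2 fold changes of -0.34 and -0.18 (adjusted p = 0.221 and 0.163) and were not called.

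The rectifiers that mark glia and pigment epithelium were not called. *kcnj10a*, a gene for Kir4.1, the main potassium conductance of Müller glia, was at 19.95, 16.4, 20.6 and 18.1 CPM in mutants, against 16.4, 18.1, 16.0 and 20.0 CPM in wild-type retinas. The groups overlapped throughout (log2 fold change 0.09 ± 0.12, adjusted p = 0.651). *kcnj13*, for Kir7.1, a channel of the apical membrane of the pigment epithelium that in zebrafish also acts in skin pigment cells, was at 7.405, 8.09, 6.61 and 7.76 CPM in mutants, against 8.62, 7.76, 6.10 and 9.60 CPM in wild-type retinas. These values overlapped as well (log2 fold change -0.10 ± 0.18, adjusted p = 0.73), and the estimate was 0.000634 with library totals. The summed level of the 10 pigment epithelium genes was 1385, 1365, 978 and 1326 CPM in mutants, against 122, 72.4, 49.6 and 154.5 CPM in wild-type retinas, a ratio of 12.7. Replicate 3 was the lowest of its genotype in both *kcnj13* and this sum. The highest mutant was mutant 2 in *kcnj13* and mutant 1 in the sum, while wild-type library 4 was the highest of its genotype in both. The part of pigment epithelium left on the retinas in the *kcnj13* value was not tested.

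The higher Kir gene was *kcnj1b*, which belongs to the ROMK type known from kidney. *kcnj1b* was at 2.37, 2.60, 2.78 and 3.48 CPM in mutants, against 0.8289, 1.63, 0.244 and 0.758 CPM in wild-type retinas. The groups did not overlap, but the values rest on 108 counts in mutants and 26 in wild-type retinas (log2 fold change 1.68 ± 0.44, adjusted p = 0.00828). Wild-type libraries had 2 to 13 counts, so the gene passed the filter on low counts through the mutant libraries. Of the 9 untested Kir genes, *kcnj1a.6* had 7 counts in mutants and 0 in wild-type retinas, too few for a comparison.

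Among the remaining voltage-gated channels, the calls described here were decreases, of 0.27 to 0.74 on the log2 scale. Kv4 channels carry the fast A-type current of neurons, and KChIP proteins, encoded by *kcnip* genes, bind them and set their surface level. *kcnd3*, for Kv4.3, was at 54.9, 60.8, 63.4 and 54.05 CPM in mutants, against 84.1, 92.7, 85.5 and 70.4 CPM in wild-type retinas. Mutant and wild-type libraries were separate (log2 fold change -0.51 ± 0.09, adjusted p = 0.000606). *kcnd2*, for Kv4.2, was at 42.5, 43.6, 45.9 and 37.5 CPM in mutants, against 59.85, 60.9, 55.4 and 44.9 CPM in wild-type retinas. Wild-type library 4 lay below mutant 3, and the gene was called (log2 fold change -0.38 ± 0.10, adjusted p = 0.0124). With library totals *kcnd2* was not called (adjusted p = 0.0659). *kcnd1* missed the threshold (-0.32, adjusted p = 0.0548).

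Of the 4 KChIP genes, 3 were lower. *kcnip3a*, a copy of the calsenilin gene and among the 5 most abundant members, was at 122, 103, 102.5 and 100.1 CPM in mutants, against 143, 157, 132.5 and 128 CPM in wild-type retinas. The groups did not overlap (log2 fold change -0.39 ± 0.09, adjusted p = 0.00266). The other copy, *kcnip3b*, was at 35.0, 32.3, 31.8 and 30.6 CPM in mutants, against 36.1, 42.9, 37.8 and 39.2 CPM in wild-type retinas (log2 fold change -0.27 ± 0.09, adjusted p = 0.0401), without overlap. That call was lost when mutant library 2, 3 or 4 or wild-type library 2, 3 or 4 was left out (adjusted p = 0.0531 to 0.121). *kcnip1b* was at 27.4, 28.1, 21.2 and 28.1 CPM in mutants, against 38.1, 26.4, 42.1 and 31.6 CPM in wild-type retinas. The groups overlapped through wild-type library 2, and the call (log2 fold change -0.40 ± 0.14, adjusted p = 0.0484) was lost without any 1 of the other 7 libraries (adjusted p = 0.052 to 0.156).

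Kv1 channels hold the firing threshold of axons, and *kcnab* genes encode their cytoplasmic β subunits. *kcna1b*, for Kv1.1, was at 29.9, 23.4, 24.4 and 21.8 CPM in mutants, against 33.8, 39.0, 32.7 and 29.6 CPM in wild-type retinas. Mutant 1 just exceeded wild-type library 4 (log2 fold change -0.44 ± 0.12, adjusted p = 0.0115). *kcna1a*, the other Kv1.1 gene, was at 18.6, 16.1, 15.7 and 15.8 CPM in mutants, against 24.9, 22.02, 19.6 and 21.6 CPM in wild-type retinas, without overlap (log2 fold change -0.41 ± 0.12, adjusted p = 0.0167). *kcna2a*, for Kv1.2, was at 9.05, 9.145, 9.13 and 8.56 CPM in mutants, against 10.6, 11.51, 12.7 and 13.8 CPM in wild-type retinas. The groups were separate (log2 fold change -0.44 ± 0.14, adjusted p = 0.0318), but the call was lost without any 1 of the 4 mutant libraries or wild-type library 3 or 4 (adjusted p = 0.061 to 0.092). *kcnab1b* was at 33.4, 26.4, 30.0 and 20.9 CPM in mutants, against 34.8, 39.3, 34.15 and 35.4 CPM in wild-type retinas. Its call (log2 fold change -0.37 ± 0.13, adjusted p = 0.0378) was lost without mutant library 2 or 4 or any 1 of the wild-type libraries (adjusted p = 0.0502 to 0.105). With library totals *kcna1a* (adjusted p = 0.08775) and *kcna1b* (adjusted p = 0.0658) lost their calls too. *kcna2b*, *kcna4* and the other 3 *kcnab* genes were not called, with log2 fold changes between -0.37 and -0.12.

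Kv3 channels, encoded by *kcnc* genes, shorten the action potentials of fast-firing neurons. *kcnc1a*, for Kv3.1, was at 57.5, 56.8, 64.3 and 53.1 CPM in mutants, against 72.6, 70.7, 68.3 and 71.5 CPM in wild-type retinas. *kcnc1b* was at 18.7, 18.3, 19.2 and 16.99 CPM in mutants, against 23.7, 21.8, 22.4 and 24.1 CPM in wild-type retinas. Neither copy overlapped between genotypes, and the log2 fold changes were -0.29 ± 0.08 for *kcnc1a* (adjusted p = 0.0122) and -0.33 ± 0.11 for *kcnc1b* (adjusted p = 0.0294). The *kcnc1b* call was lost without mutant library 1, 2 or 4 or wild-type library 1 or 4 (adjusted p = 0.0508 to 0.0766). The *kcnc1a* call was lost with library totals (log2 fold change -0.19, adjusted p = 0.104) and in libraries thinned to equal depth (adjusted p = 0.0607). The other 4 *kcnc* genes were not called, *kcnc3a* at -0.26 (adjusted p = 0.0506) being the nearest.

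All 12 genes of the EAG, ERG and ELK channels (*kcnh*) were tested, and 3 were lower. *kcnh6a*, of the ERG type, was at 33.1, 41.5, 41.3 and 40.1 CPM in mutants, against 49.9, 57.4, 66.35 and 59.4 CPM in wild-type retinas. All mutant libraries were below wild-type (log2 fold change -0.58 ± 0.10, adjusted p = 0.000524). *kcnh6b* was at 4.73, 5.68, 9.04 and 8.29 CPM in mutants, against 9.45, 8.63, 13.2 and 15.04 CPM in wild-type retinas, so that mutant 3 exceeded wild-type library 2 (log2 fold change -0.74 ± 0.23, adjusted p = 0.0261). The *kcnh6b* call was lost without mutant library 1 or 2 or wild-type library 3 or 4 (adjusted p = 0.073 to 0.0866). *kcnh1a*, of the EAG type, was at 15.2, 15.9, 16.7 and 15.8 CPM in mutants, against 22.9, 21.9, 19.3 and 19.8 CPM in wild-type retinas, without overlap (log2 fold change -0.40 ± 0.11, adjusted p = 0.0154). The *kcnh1a* call was lost with library totals (adjusted p = 0.0723). The 9 genes not called ranged from -0.67 for *kcnh4a* to 0.14 for *kcnh1b*, with *kcnh5a* at -0.35 (adjusted p = 0.0502) the nearest to the threshold.

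Markers of inner retinal neurons, in which many Kv1, Kv3 and Kv4 subunits are found, were also lower in part. Of the amacrine cell genes 4 of 8 were lower (summed level 2484 to 2712 CPM in mutants and 2952 to 3217 CPM in wild-type retinas). Of the ganglion cell genes 2 of 7 tested were lower (534 to 629 CPM in mutants and 671 to 724.5 CPM in wild-type retinas). Among all tested genes 13% were lower. The 2 lower ganglion cell genes were *rbpms2a* and *rbpms2b*, which held most of that sum (419 and 178 CPM in wild-type retinas on average). The other tested ganglion cell genes were not called, with log2 fold changes between -0.16 and 0.13. Of 10 bipolar cell genes 1 was lower and 1 higher. The part of these cells in the Kv values was not tested.

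Of the *kcnq* genes, 2 were lower and 5 were not called. *kcnq2a*, for Kv7.2, a subunit of the neuronal M-current, was at 16.25, 14.4, 15.6 and 11.9 CPM in mutants, against 17.6, 19.6, 20.0 and 23.1 CPM in wild-type retinas. The groups did not overlap (log2 fold change -0.46 ± 0.13, adjusted p = 0.0161), and the call was lost without mutant library 4 or wild-type library 4 (adjusted p = 0.0524 to 0.0527). *kcnq5b*, for Kv7.5, was at 24.2, 20.9, 20.8 and 20.5 CPM in mutants, against 27.7, 34.9, 22.4 and 27.4 CPM in wild-type retinas. Mutant 1 exceeded wild-type library 3, and the call (log2 fold change -0.38 ± 0.13, adjusted p = 0.0379) was lost without mutant library 2, 3 or 4 or wild-type library 1, 2 or 4 (adjusted p = 0.0544 to 0.146).

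Calcium-activated channels moved in both directions. *kcnma1a*, for the BK channel that limits transmitter release in amacrine and bipolar cells, was at 186, 179.8, 194 and 156 CPM in mutants, against 232, 232, 209 and 232 CPM in wild-type retinas. There was no overlap, and 3 wild-type libraries were nearly equal (log2 fold change -0.33 ± 0.08, adjusted p = 0.00376). *kcnn1a*, for the small-conductance channel SK1, was at 62.3, 58.3, 66.6 and 55.52 CPM in mutants, against 73.4, 75.3, 74.4 and 73.8 CPM in wild-type retinas, without overlap (log2 fold change -0.29 ± 0.08, adjusted p = 0.0104). With library totals *kcnn1a* was at -0.19 and not called (adjusted p = 0.105). *kcnn3*, for SK3, was at 31.8, 35.2, 27.5 and 31.7 CPM in mutants, against 29.0, 25.6, 23.05 and 17.7 CPM in wild-type retinas. Mutant 3 lay below wild-type library 1, and the higher call (log2 fold change 0.41 ± 0.14, adjusted p = 0.0339) was lost without mutant library 1, 2 or 4 or wild-type library 3 or 4 (adjusted p = 0.0679 to 0.105).

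Of the 20 genes of K2P leak channels (*kcnk*), 10 were tested, none was called lower by edgeR (1 at an unadjusted p under 0.05, and 1 by that measure in DESeq2) and 1 was higher, with a median log2 fold change of -0.09. The higher gene was *kcnk6* (ENSDARG00000007383), for TWIK-2, a channel that in mice carries potassium out of activated macrophages. *kcnk6* was at 4.11, 4.33, 3.305 and 4.95 CPM in mutants, against 1.16, 0.5004, 1.59 and 1.64 CPM in wild-type retinas. Each mutant library was above each wild-type library, and the fitted fold was 3.36 from 160 counts in mutants and 37 in wild-type retinas (log2 fold change 1.75 ± 0.35, adjusted p = 0.00129). It too passed the filter on low counts through the mutant libraries, since 2 wild-type libraries had 4 and 7 counts. The microglia and macrophage sum (ratio 1.63) and the pigment epithelium sum (ratio 12.7) were higher in every mutant library. Most of the microglia and macrophage sum came from *apoeb*, at 343 CPM in mutants and 211 CPM in wild-type retinas on average (log2 fold change 0.70). The median log2 fold change was 1.95 over the tested genes of that list and 3.16 over the pigment epithelium genes. The part of these cells in the *kcnk6* and *kcnj1b* values was not tested. *kcnk2b*, whose mutant libraries were all below wild-type, had a log2 fold change of -0.80 ± 0.34 and was not called (adjusted p = 0.0899).

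**Figure D4:**
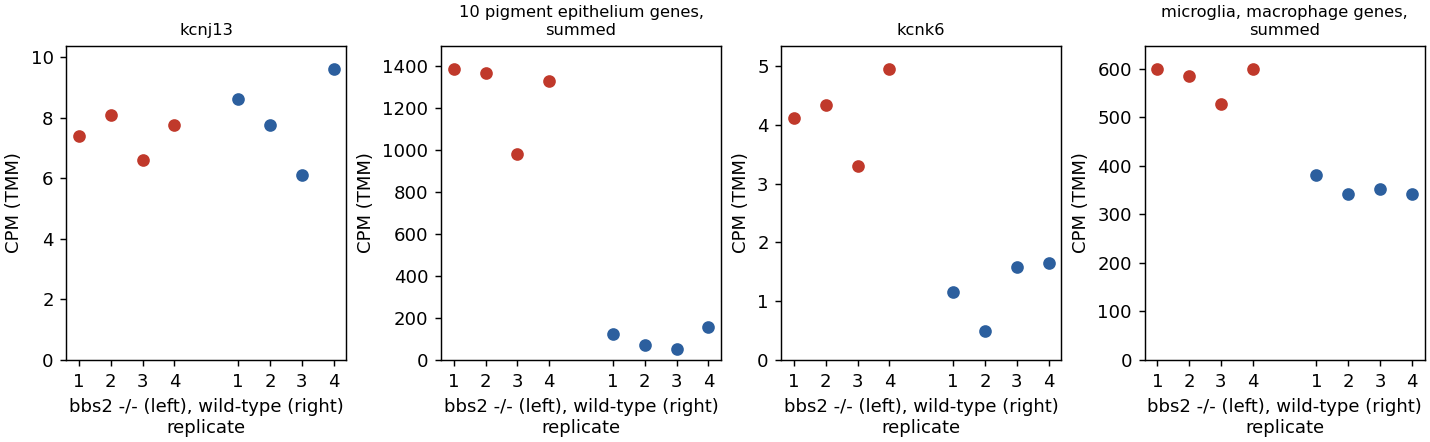
CPM in each library (mutants in red, wild-type siblings in blue) of *kcnj13*, the 10 pigment epithelium genes summed, *kcnk6*, and the microglia and macrophage genes summed. The *kcnj13* values overlap, while both sums and *kcnk6* are higher in every mutant library.

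No gene was called in *kcng*, with 4 tested genes, or in *kcne*, *kcnf* and *kcns*, with 1 each. The 29 untested members had at most 69 counts over the 8 libraries, and 7 had none. The 22 with counts entered a fit without the filter on low counts, and none of them was called by edgeR there or by DESeq2, which gave an adjusted p for 11. At an unadjusted p under 0.05, 1 of them passed in edgeR and 0 in DESeq2. They were 10 *kcnk* genes, 9 *kcnj* genes and 10 of other subfamilies, among them both *kcnt* genes and *kcnmb2*.

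Zebrafish keep many channel genes in 2 copies, and 23 pairs of tested channel genes could be compared for their response. The *kcnv2* pair passed the test, which is 4.35% of the channel pairs beside 28.5% of all 2006 pairs. For the other 22 pairs the change of the log2 ratio lay between -1.099 for *kcnk3* and 0.86 for *kcnj2*. *kcnk3a* and *kcnk3b* had log2 fold changes of -0.25 and 0.72, and their pair (-1.099 ± 0.45, limma adjusted p = 0.0855) passed the test without wild-type library 3 (-1.42, adjusted p = 0.0311). Other pairs were nearer to 0 and had smaller errors, such as *kcnc1* (0.04 ± 0.12), *kcna1* (0.03 ± 0.15) and *kcnip3* (-0.13 ± 0.10).

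**Figure D5:**
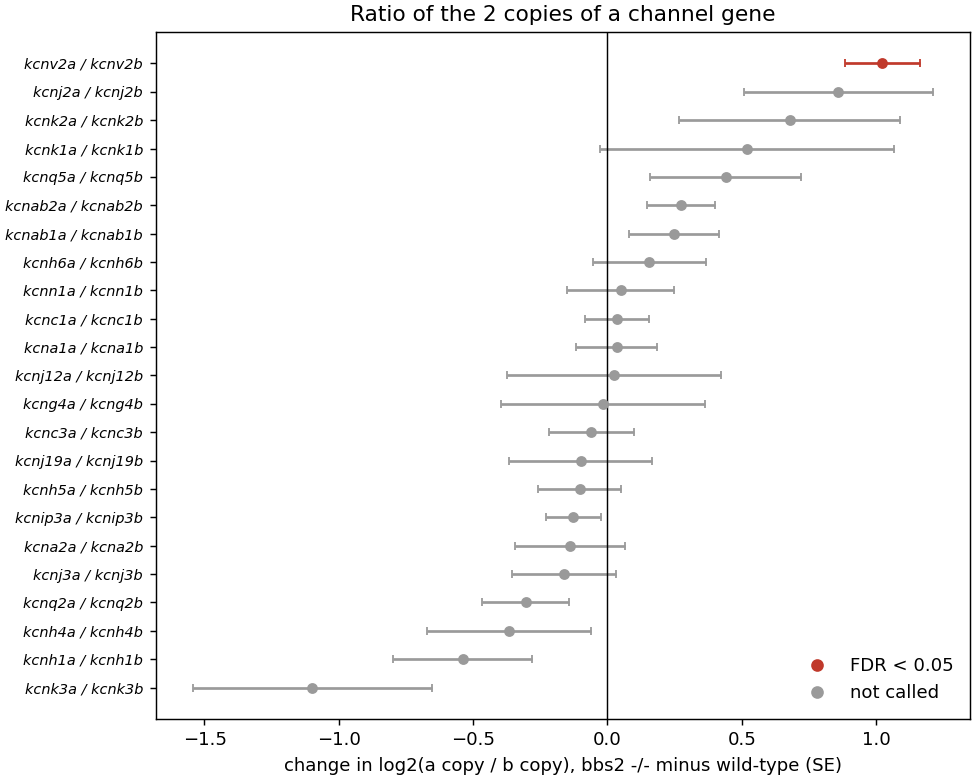
Change of the log2 ratio of the a copy to the b copy (mutant minus wild-type, horizontal axis) with its standard error for the 23 channel gene pairs. The *kcnv2* pair, in red at 1.02, passed the pair test, and the other 22 pairs, in grey, did not.

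Genes that work with these channels but lie outside the rule were mixed. Of 22 tested identifiers for auxiliary subunits, anchoring proteins and partners, 10 were lower and 1 was higher (median log2 fold change -0.26), beside 13% lower and 15.2% higher among all tested genes. Both identifiers of *dlg4b* were counted among the lower ones. *dlg4b*, a scaffold of the PSD-95 type that clusters Kv1 and Kir2 channels, fell by 0.75 ± 0.08 on the log2 scale (adjusted p = 3.77e-06) and by 0.77 (adjusted p = 0.00116) under its second identifier. *dlg2*, a related scaffold, fell by 0.51 ± 0.07 (adjusted p = 4.30e-05). *pex5la*, a copy of the gene for TRIP8b, the accessory subunit of HCN channels, fell by 0.48 ± 0.09 (adjusted p = 0.000685), while *pex5lb* was higher by 0.27 ± 0.09 (adjusted p = 0.026). The response of these TRIP8b copies differed by -0.75 ± 0.12 on the log2 scale (limma, adjusted p = 0.000597).

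The sodium-potassium pump restores the gradient that potassium channels use. Of 11 tested pump genes, 2 were higher and 3 lower, beside 15.2% and 13% of all tested genes. The α1 gene *atp1a1a.1* was higher by 1.18 ± 0.10 (adjusted p = 6.84e-07) and the β1 gene *atp1b1a* by 1.26 ± 0.15 (adjusted p = 0.000121). The β2 gene *atp1b2b* fell by 0.91 ± 0.08 (adjusted p = 6.34e-07), the neuronal α3 gene *atp1a3a* by 0.37 ± 0.07 (adjusted p = 0.00117) and the β3 gene *atp1b3a* by 0.37 ± 0.08 (adjusted p = 0.00273). The other α3 copy, *atp1a3b*, averaged 4860 CPM in mutants and 5208 CPM in wild-type retinas. It was not called (log2 fold change -0.10, adjusted p = 0.398). The other β2 copy, *atp1b2a*, averaged 894 CPM in mutants and 842 CPM in wild-type retinas and was not called either (0.09, adjusted p = 0.417). In mammals β2 partners α3 in photoreceptors, and α1 with β1 is the pump of epithelia. The part of these cells in the pump values was not tested.

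Cation-chloride cotransporters and a list of G protein and RGS genes were also counted. Of 8 tested cotransporter genes, 3 were lower and 1 higher, beside 13% and 15.2% of all tested genes. The 2 copies of the potassium-chloride cotransporter KCC4 moved apart, *slc12a7a* higher by 2.46 ± 0.23 (adjusted p = 1.23e-06) and *slc12a7b* lower (log2 fold change -1.05 ± 0.09, adjusted p = 9.00e-07), a difference of 3.34 ± 0.17 in the pair test (limma, adjusted p = 7.57e-08). Both KCC2 genes, which keep chloride low in neurons, were lower: *slc12a5a* at -0.42 ± 0.09 (adjusted p = 0.00179) and *slc12a5b* at -0.39 ± 0.07 (adjusted p = 0.00059). Of 21 tested G protein and RGS genes, 7 were lower and none higher, beside 13% and 15.2% of all tested genes. Those with the smallest p were *gnb5b* (-0.59 ± 0.08, adjusted p = 4.70e-05), *rgs7a* (-0.52 ± 0.11, adjusted p = 0.00165) and *rgs8* (-0.48 ± 0.11, adjusted p = 0.00345).

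A further 11 rows carry channel symbols in capitals and so fall outside the rule by case. Of 9 tested, 3 were lower and none higher: *KCNB2* (log2 fold change -0.66 ± 0.13, adjusted p = 0.002), *KCNAB3* (-0.37 ± 0.09, adjusted p = 0.00637) and *KCNH2* (-0.30 ± 0.09, adjusted p = 0.0223). With them, 29 of 98 tested genes were lower and 4 higher, beside 13% and 15.2% of all tested genes. Reads shared by near-identical copies may be split between genes, and reads of overlapping antisense genes cannot be set apart since no source used here states whether counting took strand into account.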

How the data were processed

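Ribosome-depleted total RNA of 8 retina samples was sequenced from stranded libraries. The authors aligned reads to GRCz11 with STAR and tested genotypes with DESeq2 1.30.1 in R 4.0.4. They deposited raw counts per gene, used here for all tests, and TPM, used here for levels between genes; no source used here names the TPM tool. The authors' normalized table and their comparison columns (fold changes, p-values and FDR) were not used.

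Counts were fitted with edgeR 4.0.16 in R 4.3.3 (quasi-likelihood, robust, TMM, genotype only) after filterByExpr at a minimum count of 10, with Benjamini-Hochberg adjustment at 0.05 over 17144 genes. The SD describes the spread over 4 samples per genotype. Standard errors of fold changes were derived from the unshrunk edgeR coefficient and its F statistic, and those of copy ratios come from the limma fit. Both fits share variance information across genes or pairs. Copy pairs were tested with limma 3.58.1 on differences of log2 CPM (prior count 2). Alternatives were other scalings, filters and tools (DESeq2 1.42.0, limma-voom), thinned libraries, a replicate block and each library left out. Scripts were tested on simulated data.

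Libraries held 6279179 to 11496801 counts, and the biological coefficient of variation was 13.6%. Values per library are given for up to 3 called members in each direction of each subfamily by smallest p, a set of retinal channel genes (of which *hcn2a* and *kcnma1b* are not among the symbols), and pairs past the pair test; partner lists are given by up to 3 genes per direction. *kcnj5* and some, not all, of the members with an adjusted p just over 0.05 were added after their values were seen. The members and lists were chosen with earlier results of these data known. A few members are counted but not reported here by name.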

Additional observations from a re-analysis of the deposited data

Results flagged for a closer look

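In 8 of the 72 sets of 4 libraries checked (36 genes in 2 genotypes), 1 library stood far from the others of its genotype, where chance gives about 1 in 20 sets. Mutant 1 was apart in 4 genes: it was higher in *kcna1a* (18.62 CPM, the others 15.74 to 16.08), *kcnip3a* (122.2 CPM, the others 100.1 to 103) and *kcnq5b* (24.17 CPM, the others 20.47 to 20.89) and lower in *kcnh6a* (33.12 CPM, the others 40.13 to 41.49). Mutant 4 was lower in *kcna2a* (8.562 CPM, the others 9.051 to 9.145) and *kcnj9* (26.62 CPM, the others 28.78 to 29.13). Mutant 3 was lower in *kcnip1b* (21.22 CPM, the others 27.36 to 28.11). Wild-type library 3 was lower in *kcnma1a* (208.6 CPM, the others 231.9 to 232.1).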

How the results depend on the processing

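No called member changed sign in any of the 16 settings run across genes, and of the 29 named members that were called, 12 kept their call in all of them and 2 more, *kcnj1b* and *kcnk6*, in all but the filter on every library, where they were not tested. The count of lower members, 26 as reported, was 13 with library totals and 9 with a log2 fold change beyond 0.5, and 19 to 27 when 1 library was left out. The count of higher members, 4 as reported, was 2 where every library had to hold 10 counts or more and 3 to 4 when 1 library was left out. Subfamilies with a call numbered 13 to 14 and channel pairs past the pair test 1 to 2 when 1 library was left out, the value of 2 being that without wild-type library 3. With library totals 11 subfamilies had a call and 8 a lower call, against 14 and 13 as reported. Library totals raised the share of higher genes among all calls to 71.3%, against 54% with TMM, and the members' median stayed below that of all genes by 0.27, against 0.28 with TMM. DESeq2 called 23 members lower and 4 higher, and 56.3% of all its calls were higher. *kcnj13* stood at 0.000634 with library totals. The log2 fold change of *kcnj2a* was 0.0526 with library totals, 0.0224 in thinned libraries and -0.54 to 0.13 when 1 library was left out. The cause of these changes was not tested. Deviations of samples with the same replicate number correlated at -0.066 to 0.060, and those of samples with different numbers at -0.075 to 0.082. These values cannot show whether samples of the same number were raised or prepared together, which the sample titles do not state. With the replicate block, 30 members were lower and 4 higher, and 53.6% of all calls were higher. Of the 34 members, 26 were also called without the block, and *kcnv2a* was among those added (edgeR, adjusted p = 0.000423). The 29 untested members had few counts or none.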
